A study of Caenorhabditis elegans with 2 samples.

Results

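Chromosome X of *Caenorhabditis elegans* carries 272 of the tRNA genes described here, chosen as the genes of biotype tRNA on that chromosome in the Ensembl annotation of WBcel235, the assembly also called ce11. The annotation holds 276 tRNA genes on X, and 4 whose names mark suppressor alleles were left out. The nuclear genome holds 612 tRNA genes among 46926 annotated genes, and the 333 autosomal tRNA genes left by the same rule served as the reference. RefSeq placed every one of the 272 genes at the same bases and called it a tRNA gene, and the 272 genes held 105 distinct sequences.

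The study mapped binding of SNPC-4 by ChIP-seq in 2 biological replicates, which formed a single group. The worms were young adult hermaphrodites of strain YL487, a stably transgenic line whose SNPC-4 carries GFP and FLAG at its C terminus, and they were collected 60 hours after synchronization by starvation at the first larval stage. Chromatin came from whole animals and was sheared by sonication. The submitters' description gives anti-GFP as the antibody, whereas their antibody entry names SNPC-4 itself. Whole animals mix germline and somatic nuclei, so a region bound strongly in few cells and a region bound weakly in many cannot be told apart. No untagged or untreated worms were analysed here, so the measurements below describe where SNPC-4 regions lay and how strong they were, and no contrast between groups of samples was possible.

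tRNA genes are transcribed by RNA polymerase III from promoters that lie inside the gene. The A box, near the start of the transcript, encodes the D arm of the tRNA, and the B box, near its end, encodes the T arm. The factor TFIIIC reads these boxes and places TFIIIB upstream of the gene, and a run of T after the gene ends transcription. SNPC-4 is the worm counterpart of the largest subunit of SNAPc, a complex known for binding the upstream element of small nuclear RNA promoters, which the usual tRNA gene does not need.

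The sequences that follow show 3 sets of genes that were identical to the last base of the annotated gene, were found on X only, and yet had a peak at some copies and none at others. Each line runs 5′ to 3′ on the strand of the gene and holds the gene and the 25 bases after it, with the A box core, the B box core and the first run of at least 4 T after the gene in capitals. They are RefSeq sequence of WBcel235, and these genes were picked after their values were seen. The arginine genes are F09B9.t2 on the minus strand at X:10148624-10148721, which had a peak, and T01C1.t1 on the minus strand at X:10731964-10732061, which had no region.
F09B9.t2: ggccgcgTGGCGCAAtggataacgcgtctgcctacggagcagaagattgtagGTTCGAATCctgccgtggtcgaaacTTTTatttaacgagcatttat
T01C1.t1: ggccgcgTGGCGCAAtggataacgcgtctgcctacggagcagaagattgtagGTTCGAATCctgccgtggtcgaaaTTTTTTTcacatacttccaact
The leucine genes are D1009.t2 on the plus strand at X:8939550-8939656, with a peak, and F14B8.t1 on the minus strand at X:6903089-6903195, with none.
D1009.t2: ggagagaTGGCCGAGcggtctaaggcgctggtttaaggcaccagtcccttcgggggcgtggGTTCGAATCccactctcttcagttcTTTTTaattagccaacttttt
F14B8.t1: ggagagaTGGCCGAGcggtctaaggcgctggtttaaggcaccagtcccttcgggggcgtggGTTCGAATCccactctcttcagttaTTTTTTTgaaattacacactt
The tyrosine genes are R11.t1 on the minus strand at X:16209744-16209852, with a peak, and R11.t2 on the minus strand at X:16209203-16209311, with none within 300 bp. The state of R11.t2 rests on that limit, since a pooled summit of signal 102 lay 324 bp from its 5′ end.
R11.t1: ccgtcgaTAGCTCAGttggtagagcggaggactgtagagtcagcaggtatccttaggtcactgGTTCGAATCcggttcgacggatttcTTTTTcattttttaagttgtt
R11.t2: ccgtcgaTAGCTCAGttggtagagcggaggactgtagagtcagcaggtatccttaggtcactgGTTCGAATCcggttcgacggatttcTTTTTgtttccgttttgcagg
Both genes of each set have the same boxes at the same positions, the A box core starting at base 8 of the gene, and every one of the 6 has a T run that begins within 5 bases of the end of the gene.

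The second set of sequences shows the DNA between the 5′ ends of 2 gene pairs that point away from each other and share a summit, chosen because they are the strongest shared summits on X. Capitals mark the summit and 10 bases on each side of it, on the plus strand. The spacer between M02F4.t2 and M02F4.t1 is X:3036048-3036163, and that between T10B10.t2 and T10B10.t1 is X:15200889-15201006.
M02F4 spacer: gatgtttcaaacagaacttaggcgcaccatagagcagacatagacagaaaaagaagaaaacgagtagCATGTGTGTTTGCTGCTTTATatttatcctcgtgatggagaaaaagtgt
T10B10 spacer: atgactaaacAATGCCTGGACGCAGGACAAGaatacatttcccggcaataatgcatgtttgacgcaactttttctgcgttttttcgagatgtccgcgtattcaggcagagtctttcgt
The first spacer is 116 bases long and 61.2% A or T, and the second is 118 bases long and 55.9% A or T.

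SNPC-4 regions lay at most tRNA genes of X. Of the 272 genes, 184 (67.6%, exact binomial 95% interval 61.7 to 73.2%) had a summit within 300 bp of their 5′ end in the deposited list of reproducible peaks. IDR, the irreproducible discovery rate, is the procedure by which peaks that rank alike in both replicates are kept, and these peaks are called IDR peaks below. The share was 57.4% at autosomal tRNA genes (191 of 333, interval 51.9 to 62.7%) and 2.53% at protein-coding genes of X. Over all other nuclear genes, meaning the 46618 outside the 272, it was 11.2%. That set holds genes of every biotype, autosomal tRNA genes included, and the same set is meant below. The intervals of X and autosomal tRNA genes overlapped, they cover counting error only, and genes are not replicates, so no test of that difference was made. The single autosomes were spread on both sides of X: the share was 81.2% on IV (56 of 69), 63.2% on II (36 of 57), 55.1% on V (43 of 78), 44.4% on III (28 of 63) and 42.4% on I (28 of 66).

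tRNA genes also made up much of the SNPC-4 map of X. Of the 653 IDR peaks on X, 178 (27.3%) had their summit within 300 bp of a tRNA gene described here, against 197 of 4007 (4.92%) on autosomes. The median signal was 254 at these X peaks and 232 at the other X peaks. The signal is the authors' own value for each region, on a scale that their labels and files do not name, so it is read only within a list.

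The 88 X genes without an IDR peak were of several kinds. A further 25 had a region in the pooled candidate list that did not reach the IDR list, against 24 of 333 autosomal genes, and 63 (23.2%) had no pooled region within the window, against 118 (35.4%) of the autosomal genes. Counting any pooled summit, 76.8% of X tRNA genes and 64.6% of autosomal tRNA genes had one, against 38.4% of all other nuclear genes. Each candidate list holds 30000 regions whatever their strength, of which the IDR list kept 15.6%, so how far down a candidate list reaches is set by its length. Genes with no region in any of the lists numbered 27 on X (9.93%) and 85 on autosomes (25.5%).

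Each replicate alone had strong regions at most X tRNA genes. Taking from each replicate as many of its strongest regions as the IDR list holds, 198 X genes had one in replicate 1 and 202 in replicate 2, and 185 (68.0%) had one in both. The share with one in both was 51.1% at autosomal tRNA genes (170 of 333) and 7.63% over all other nuclear genes. Of the 184 X genes with an IDR peak, 172 had such a region in both replicates and 2 in neither. Over the 179 X genes with an IDR peak and a region in both replicate lists, the ranks in the replicates had a Spearman correlation of 0.831, and 166 of them (92.7%) had ranks within 2-fold of each other. For autosomal tRNA genes the correlation was 0.950 over 185 genes, whose signals span a wider range. These correlations describe points that share both libraries and, in places, summits. They use the summit nearest to the 5′ end in each replicate list, which need not be the same region in both.

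**Figure D1:**
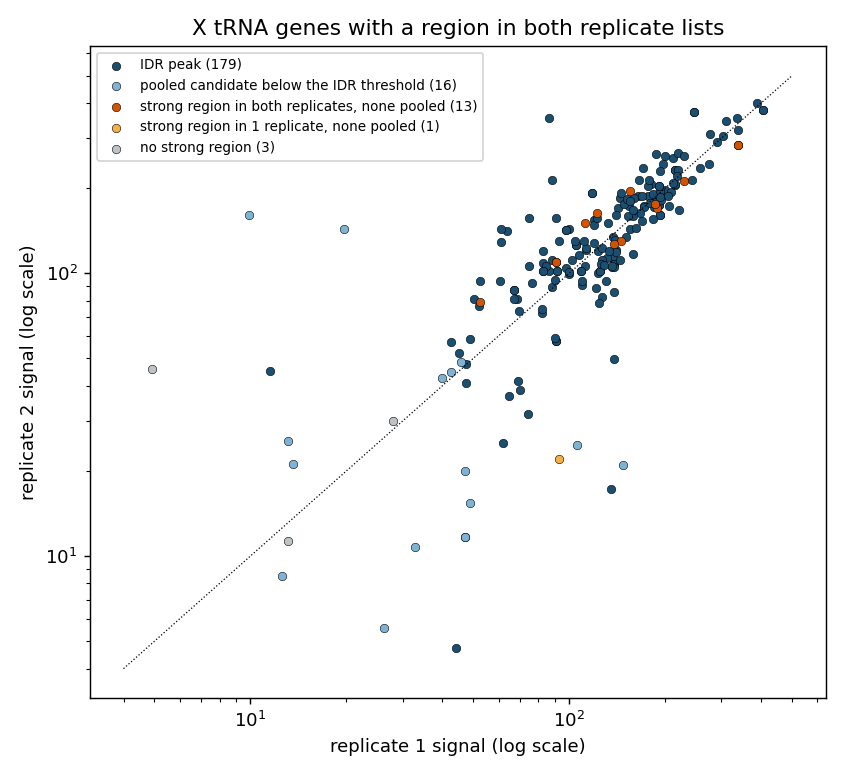
Signal of the region nearest to each X tRNA gene in replicate 1 (x axis) and replicate 2 (y axis), both on log scales in the authors' unit, with 1 point a gene, the colour giving the state of the gene and the dotted line equal values. Most of the 179 genes with an IDR peak lie near the line, and the 13 genes with a strong region in both replicates and none in the pooled list lie among them.

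A strong region in both replicates and no region within the window in the pooled list was found at 13 of 272 X genes, against 5 of 333 autosomal genes. The strongest were the alanine genes F15G9.t1 and F15G9.t2, which lie in intronic sequence of him-4, the gene of an extracellular matrix protein also called hemicentin, and share a region with a signal of 338 in replicate 1 and 284 in replicate 2. The lysine gene W03G11.t1 had 229 in replicate 1 and 212 in replicate 2, and the glutamate gene T26C11.t1 had 189 and 170 in the same order. These values sit above the medians of X genes with an IDR peak in the same lists, which were 135 in replicate 1 and 142 in replicate 2.

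The other 9 such genes were R01H5.t1 (Thr), C02F12.t1 (Met), T28B4.t1 (Phe), F42G10.t1 (Arg), T07H6.t1 (Ala), F47E1.t1 (Gln), F54F7.t1 and F54F7.t2 (Gln) and F41D9.t2 (Arg), and all 13 were named after their values were seen. Across the 13, the signal ranged from 52.5 to 338 in replicate 1 and from 79.2 to 284 in replicate 2. Counted by region, 10 of 172 strong replicate 1 regions at X tRNA genes that were shared with replicate 2 overlapped no pooled region (5.81%). The same held for 5 of 178 at autosomal tRNA genes (2.81%) and for 45 of 3248 away from tRNA genes (1.39%). Whether the making of the pooled list accounts for these gaps was not tested. A further 15 X genes with no pooled region had a strong region in 1 replicate, and 35 had none in either, against 16 and 97 autosomal genes.

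Signal at X tRNA genes was moderate and even. Over the 184 genes with an IDR peak the pooled signal ran from 94.6 to 784, with a median of 263 and quartiles of 200 and 371. At the 191 autosomal genes it ran from 88.5 to 14871, with a median of 288 and quartiles of 155 and 936. The medians lay close together, while the spread did not: 53 of the 191 autosomal genes exceeded the highest X gene, and 36 of these lay on IV, 9 on V, 4 on II, 3 on III and 1 on I. At 8 of the 53 the 5′ end of a gene of certain other classes was nearer to the summit. The classes searched were protein-coding, snRNA, snoRNA, miRNA, rRNA, lincRNA, antisense RNA and ncRNA genes. Other classes, piRNA genes and pseudogenes among them, were not searched, so more of the 53 summits may lie nearer to another gene. The X genes filled ranks 444 to 4291 of the IDR list, whose median signal was 165.

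**Figure D2:**
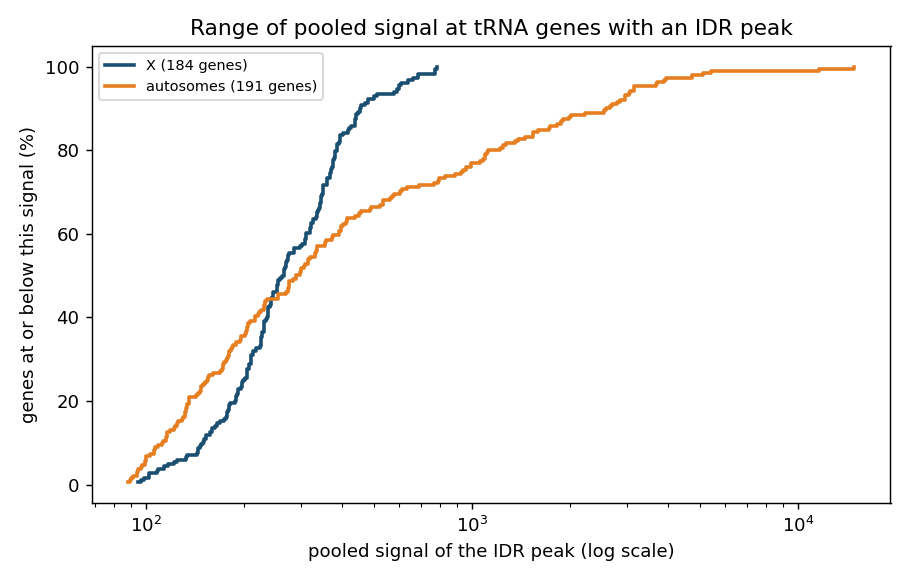
Cumulative share of tRNA genes (y axis, percent of genes with an IDR peak) at or below each pooled signal (x axis, log scale, the authors' unit) for X and for autosomes. The X curve climbs between 94.6 and 784, and the autosomal curve starts at 88.5 and runs on to 14871.

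The strongest signals on X were spread over many amino acids. K08H2.t1, a threonine gene at X:13261203-13261274 between other genes, had the highest pooled signal, 784 (389 in replicate 1 and 399 in replicate 2), and its summit lay 186 bp from the 5′ end, beyond the end of the gene. The glutamate gene M02F4.t2 (X:3035976-3036047) and the glycine gene M02F4.t1 (X:3036164-3036235) share a summit of signal 769 in the first spacer printed above, and the replicates gave 405 and 377. The glycine genes T10B10.t2 and T10B10.t1 share 682 across the second spacer. Replicate 2 gave 355 at both, while in replicate 1 the nearest summit had 337 at T10B10.t2 and a separate, weaker one of 86.1 at T10B10.t1.

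The next were R11.t1 (tyrosine, 660), C02D4.t1 (isoleucine, 636, within an intron of ser-2, which encodes a tyramine receptor), C33G3.t2 (lysine, 606, its summit on the first base of the gene) and the proline pair F23D12.t1 and F23D12.t2 (600, a shared summit). Each of these was high in both replicates: R11.t1 had 339 in replicate 1 and 322 in replicate 2, and C33G3.t2 had 304 and 305. The remaining isotypes had as their strongest genes C04A11.t1 (Leu, 589), C06G1.t1 (His, 513), F59C12.t2 (Asp, 482), R04D3.t2 (Val, 472), F41D9.t3 (Asn, 454), C53C7.t1 and C53C7.t2 (Ser, both 439), C11G10.t1 (Arg, 418), T08A9.t1 (Ala, 385), F42D1.t1 (Cys, 376), rtw-5 (Trp, 350), K08B5.t1 (Phe, 310), E01H11.t1 (Met, 310) and the pair H35N09.t1 and H35N09.t2 (Gln, both 205). Isotype maxima on X thus differed by less than 4 times, from 205 to 784.

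At the low end, the weakest genes with an IDR peak were Y7A5A.t5 (Ser, 94.6), K01A12.t2 (Cys, 96.8), R11.t4 (Tyr, 98.9), K11E4.t4 (Lys, 102) and R11.t3 (Tyr, 102). The strongest candidates below the IDR list were F52E10.t4 (Glu, 86.1), ZK380.t1 (Arg, 79.1), R04E5.t4 (Gly, 75.8), F52E10.t3 (Glu, 70.6) and F52E10.t1 (Glu, 69.5). All 25 such candidates lay between 5.98 and 86.1, with a median of 35.5. The first 6 genes along X with no pooled region were C04E7.t1 (Leu), R04A9.t1 (Gln), F56F10.t1 (Tyr), B0344.t3 (Ile), Y75D11A.t2 (Arg) and T26C11.t1 (Glu).

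The 3 genes with the largest rank difference between replicates were T06H11.t1, M163.t2 and C53C7.t3. Each list gave the summit nearest to the 5′ end, which need not be the same region or the strongest one in the window. T06H11.t1 (Ser) had 4.91 in replicate 1 and 45.8 in replicate 2 and no pooled region. M163.t2 (Lys) had 44.2 in replicate 1 and 4.73 in replicate 2, yet a pooled IDR signal of 265. C53C7.t3 (Leu) had 9.87 in replicate 1 and 161 in replicate 2, and a pooled candidate of 46.3.

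SNPC-4 peaks were found at genes of every isotype on X, and 17 of 20 isotypes had them at 50% or more of their genes. An isotype is the set of tRNAs that carry 1 amino acid, and it was annotated for 269 of the 272 genes. Aspartate (11 of 12), serine (16 of 18), valine (12 of 14), cysteine (6 of 7), lysine (15 of 18) and asparagine (5 of 6) genes most often had a peak, beside the single tryptophan gene. The lowest shares were those of glutamine (5 of 15), alanine (5 of 13) and arginine (13 of 27). Intervals were wide at these sizes: 11.8 to 61.6% for glutamine and 61.5 to 99.8% for aspartate.

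The low isotypes differed in what stood at the genes without a peak. Of the 15 glutamine genes, 4 had a pooled candidate, 3 a strong region in both replicates only, 2 in 1 replicate and 1 none. Of the 13 alanine genes, 3 had a strong region in both replicates only, 2 in 1 replicate and 3 none. On autosomes glutamine genes had a peak at 8 of 12 and alanine genes at 15 of 21, while arginine genes had one at 7 of 17. Serine ran the other way, with 16 of 18 on X and 11 of 21 on autosomes. These isotypes were picked for their shares, so the contrasts between X and autosomes are a description.

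Anticodons could be read from the sequence of 253 genes, and within an isotype they were not alike. All 8 serine AGA genes and all 5 lysine TTT genes had a peak, and proline TGG genes had one at 13 of 16. Leucine AAG genes had one at 4 of 10, and the other leucine anticodons found had 1 of 2 (CAG), 1 of 1 (TAA) and 1 of 1 (TAG). Alanine AGC genes had one at 3 of 9 and glutamine TTG genes at 4 of 12. Median signal among genes with a peak was highest for glutamate (377), valine (342) and aspartate (322) among isotypes with at least 10 such genes, and it was 153 over the 5 glutamine genes.

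**Figure D3:**
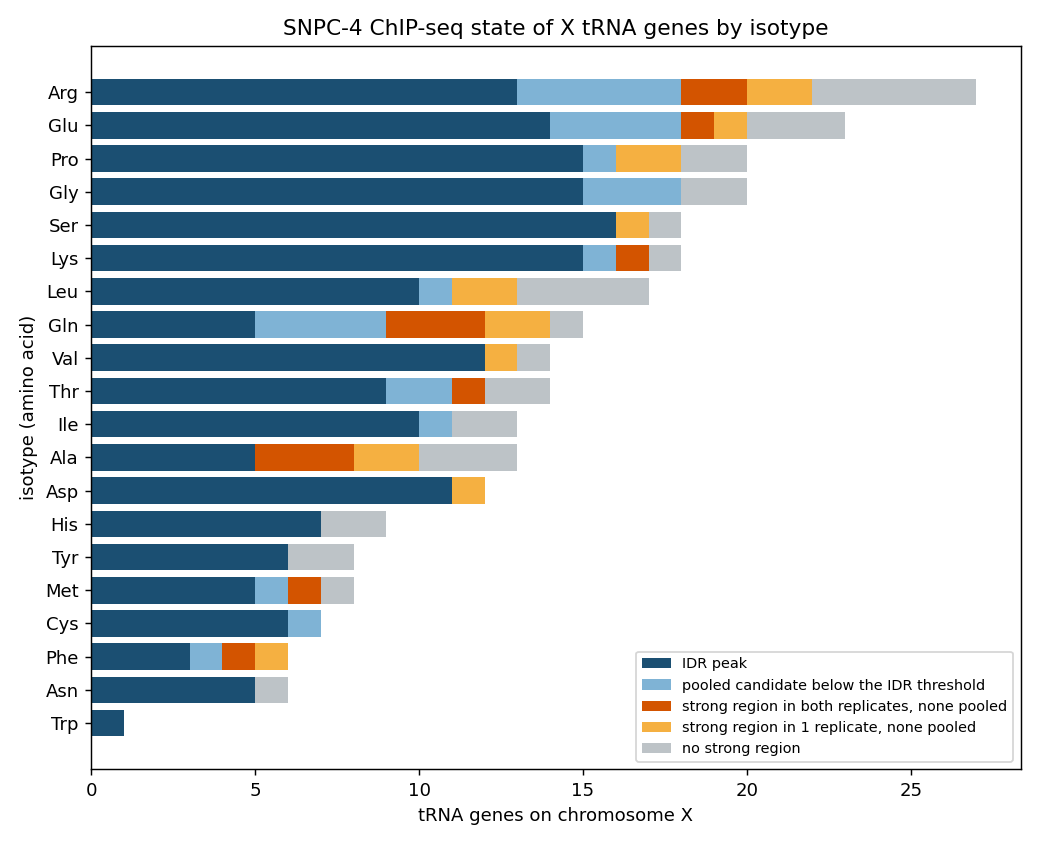
Number of X tRNA genes (x axis) of each isotype (y axis), split by colour into genes with an IDR peak, with a pooled candidate only, with a strong region in both replicates or in 1 replicate but none pooled, and with no strong region. Dark bars fill most of the length for Asp, Ser, Val and Lys and the smaller part for Gln (5 of 15) and Ala (5 of 13).

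Identical genes on X did not share one state. There were 32 families of 2 or more identical genes on X, holding 199 genes. In 5 families every X copy had an IDR peak, in 27 some had, and in none of the 32 was a peak absent from all copies. In 13 families a copy with a peak stood beside a copy with no strong region within 300 bp in any list. Some such copies had a pooled summit just beyond that window. The A box, the B box and every other base of the gene are the same within such a family.

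The arginine ACG family printed above has 10 copies, all on X, of which 7 had an IDR peak with signals from 133 (T06H11.t3) to 349 (F09B9.t2) and a median of 334. Its other 3 copies, C14F11.t1, K01A12.t3 and T01C1.t1, had no pooled region within the window. The nearest pooled summit to K01A12.t3 lay 330 bp away, with a signal of 96.8. F09B9.t2 had 185 in replicate 1, and T01C1.t1 had no region in either replicate. The leucine AAG family has 9 copies, all on X, with a peak at 4 (125 to 240, the highest at D1009.t2) and none at 5, among them F14B8.t1. The tyrosine family has 6 copies, all on X, with peaks at 4, from 98.9 (R11.t4) to 660 (R11.t1). None lay within the window at R11.t2, whose nearest pooled summit was 324 bp away, or at F56F10.t1.

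The largest families had peaks at most copies. Of 13 identical proline TGG genes on X 11 had a peak, of 12 glutamate CTC genes 9, of 11 glycine TCC genes 10, and of 10 aspartate GTC genes 9. Genes with a sequence found once in the genome had a peak less often in number, at 30 of 57 (52.6%, interval 39.0 to 66.0%), against 154 of 215 (71.6%, interval 65.1 to 77.5%) for genes with identical copies. The autosomal shares stood in the same order, at 36 of 86 (41.9%) and 155 of 247 (62.8%). Requiring 20 identical bases on each side as well turned this order round on X, with 67.9% of single-copy genes and 2 of the 4 genes that were still multi-copy.

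Reads from identical copies can be hard to place, so the share of 50-base words found once in the genome was taken over the 300 bp around each 5′ end. Its median was 86.1% at genes with a peak and 86.5% at genes with no pooled region. Genes under 75% numbered 15, and 6 of them had a peak, against 178 of the 257 others (69.3%). Of the 6 histidine genes of F28H6 4 had at most 23% of such words, so their values rest on little unique sequence. The authors' treatment of reads that map to several places is not stated in their labels.

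Signal at X genes with a peak was lower where other tRNA genes lay nearby, while the share of genes with a peak had no fixed order. On X 129 genes (47.4%) had the 5′ end of another tRNA gene within 1 kb, against 29.7% of autosomal tRNA genes. A peak was found at 92 of these 129 (71.3%, interval 62.7 to 78.9%) and at 92 of the 143 lone genes (64.3%, interval 55.9 to 72.2%), intervals that overlap. The order turned round in the strongest regions of replicate 2 alone, at 71.3% of clustered and 76.9% of lone genes, and with a window of 150 bp, at 62.8% of clustered and 63.6% of lone genes. The pooled signal at genes with a peak had a median of 318 at lone genes (n = 92), of 237 with 1 other tRNA gene within 1 kb (n = 61) and of 181 with 2 or more (n = 31). The medians stood in the same order in each replicate alone, at 155, 113 and 90.6 in replicate 1 and 160, 126 and 101 in replicate 2.

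A pair of alternatives chosen after seeing the data kept that order. Without genes that share a summit, the pooled medians were 318 at lone genes, 208 with 1 neighbour (n = 31) and 148 with 2 or more (n = 15), and without chains of 4 or more genes they were 318, 237 (n = 60) and 198 (n = 15). On autosomes the medians were 288 (n = 131), 309 (n = 48) and 206 (n = 12), which is not the same order. No test was made, since genes of a cluster share their source.

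**Figure D4:**
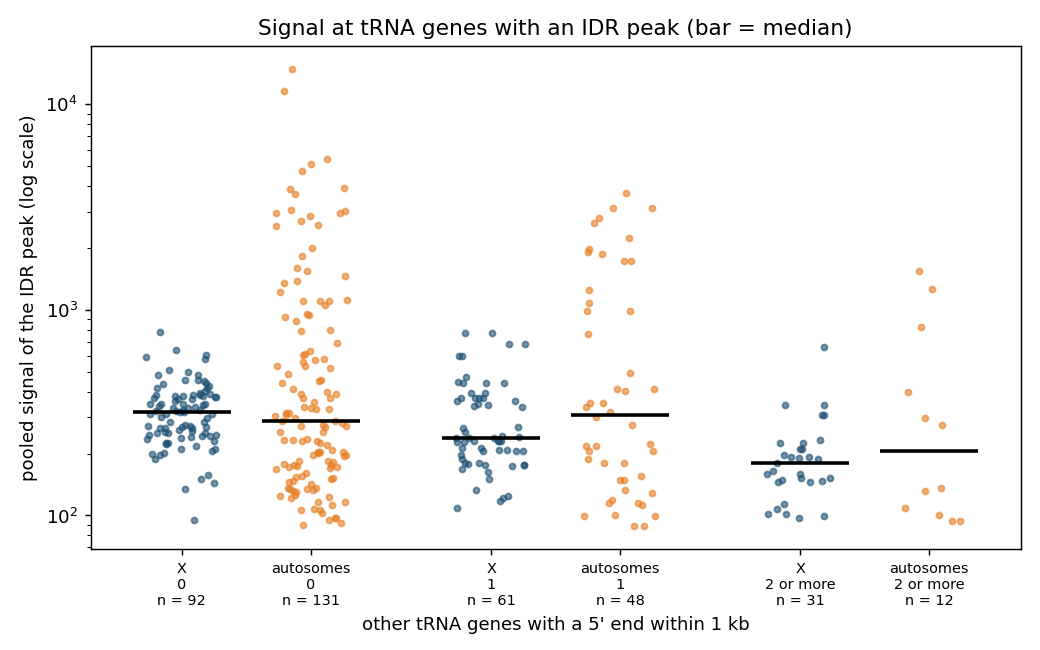
Pooled signal (y axis, log scale, the authors' unit) of tRNA genes with an IDR peak on X and on autosomes, split by the number of other tRNA genes with a 5′ end within 1 kb, with 1 point a gene and a bar at the median. On X the bar is at 318 for lone genes and at 181 with 2 or more neighbours, and the autosomal points reach further up in every column.

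The 129 clustered genes formed 52 chains in which each gene lay within 1 kb of the next. In 38 chains all genes carried the same amino acid. Every gene had a peak in 26 chains, some had in 21 and none had in 5. Chains of 4 or more genes numbered 5, and in each of them some genes had an IDR peak and some did not.

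The chain of F22F1 spans X:8154445-8156707 with 6 genes, in order F22F1.t2 (Ser, signal 174), F22F1.t3 (Asp, 108), F22F1.t4 (Ser) and F22F1.t5 (Asp), which share 145, F22F1.t6 (Met), a candidate of 11.5, and F22F1.t7 (Ile, 148). The 6 histidine genes of F28H6, at X:14135045-14137010, are 3 convergent pairs. The outer pairs, F28H6.t2 with F28H6.t7 and F28H6.t4 with F28H6.t5, each shared a summit, of 192 and 160, and the middle pair, F28H6.t3 and F28H6.t6, had no region in any list. The unique share of 50-base words was 0% at F28H6.t3 and 16.7% at F28H6.t6, and it was also 0% at F28H6.t4, which had a peak.

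The next chains have 5 genes each and lie inside host genes. In K01A12.3 the 3 cysteine genes had peaks, K01A12.t4 and K01A12.t5 sharing 211 and K01A12.t2 at 96.8. The arginine genes at the ends, K01A12.t1 and K01A12.t3, had no pooled summit within 300 bp. Their nearest ones lay 397 and 330 bp away, in that order. In ajm-1, which encodes a protein of epithelial junctions, 5 glutamine genes had 1 IDR summit of 153 shared by H08J11.t2 and H08J11.t3, and 1 candidate of 9.08 near H08J11.t1, H08J11.t4 and H08J11.t5. In the tyrosine chain of R11, R11.t1 stood at 660, R11.t3 at 102 and R11.t4 at 98.9. R11.t2, between R11.t1 and R11.t3, had no summit within 300 bp, its nearest pooled one being 324 bp away.

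Sharing of summits was common: 46 of the 184 genes with a peak lay on 23 summits shared by a pair, so the 184 genes rest on 161 distinct summits. In 13 pairs the genes pointed away from each other, with 115 to 231 bp between their 5′ ends (median 144), in 6 they pointed at each other, and in 4 they ran the same way. In 17 of the 23 pairs both genes carried the same amino acid. Which gene of a pair was bound cannot be told from a shared summit.

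Peaks were found at tRNA genes inside introns and at those between genes. On X 92 genes (33.8%) lay in introns of 65 protein-coding host genes, 179 (65.8%) lay outside protein-coding genes and 1 overlapped an exon, while on autosomes 56.2% lay in introns and 41.1% outside such genes. A peak was found at 58 of the 92 intronic genes (63.0%, interval 52.3 to 72.9%) and at 125 of the 179 intergenic genes (69.8%, interval 62.5 to 76.5%). The median signal was 253 at intronic and 265 at intergenic genes with a peak. By strand, 30 of 47 genes on the strand of the host had a peak and 28 of 45 on the other strand.

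All 3 tRNA genes had a peak in pix-1, in srxa-9 and in tbc-12, 2 of 3 had one in unc-58 and in deg-1, which both encode ion channels, and 1 of 3 had one in wrt-9. In him-4 neither of the 2 had a pooled region, although both replicates held one, as given above.

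The summits taken lay on or near the start of the tRNA gene. Each was the summit nearest to the 5′ end, within 300 bp on either side, so this nearness is partly set by the choice. Taking the highest summit in the window instead also gave a median of 11 bp on X. No offsets at other kinds of gene are given for comparison. The median summit was 11 bp into the gene on X (quartiles −17 and 62 bp, n = 184) and 8 bp on autosomes (quartiles −19 and 37 bp, n = 191), negative values being upstream of the 5′ end. Summits were inside the gene at 53.3% of X genes and 50.8% of autosomal genes, and upstream at 32.1% and 38.7%. Lone genes, where the summit cannot belong to a tRNA neighbour, were these: on X 73 of 92 summits (79.3%) were inside the gene and 14 upstream, and on autosomes 75 of 131 (57.3%) were inside and 46 upstream. The medians of lone genes were 16 bp on X (quartiles 7 and 46 bp) and 9 bp on autosomes (quartiles −16 and 39 bp). Over all X genes with a strong region, clustered ones included, the medians were 15 bp in replicate 1 and 8 bp in replicate 2. The medians of 11 and 8 bp over all genes with a peak differ by less than these. The spread between replicates was not taken for lone genes alone.

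Set against the boxes of the 87 lone X genes in which both were found, the median summit lay 9 bp after the start of the A box core and 37 bp before the start of the B box core. The boxes start at a median of base 8 and base 53 of these genes. Summit and box were within 25 bp of each other at 43 of the 87 for the A box and at 31 for the B box. Peaks were wide compared with these distances, with a median width of 312 bp and a range from 127 to 1259 bp over the X genes with a peak.

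**Figure D5:**
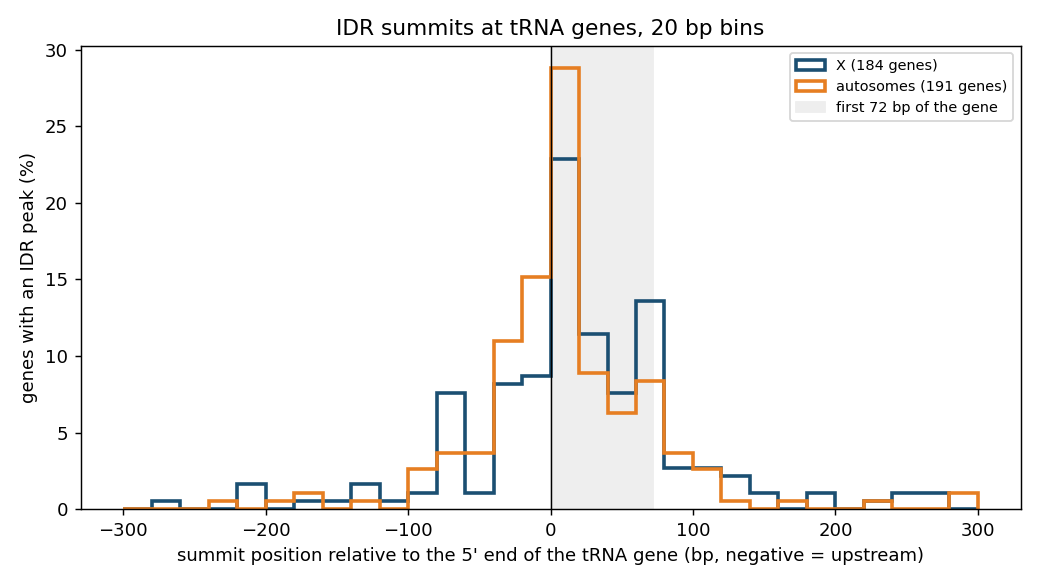
Share of genes with an IDR peak (y axis, percent) by position of the summit relative to the 5′ end of the tRNA gene (x axis, bp, negative upstream, bins of 20 bp) for X and for autosomes, with the first 72 bp of the gene shaded. Both curves peak just after the 5′ end, with medians of 11 bp on X and 8 bp on autosomes. The summit nearest to the 5′ end within 300 bp was taken for each gene.

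The edge of the 300 bp window mattered at clustered genes. With a window of 500 bp, 197 X genes had an IDR summit, against 184. The share of clustered genes then rose from 71.3 to 81.4%, while that of lone genes stayed at 64.3%. Just inside were F52E10.t2, with a candidate of 8.86 at −285 bp, F52E10.t1, with a candidate of 69.5 at −278 bp, and the cysteine gene F12D9.t6, with an IDR summit of 225 at −275 bp. Just outside were R04E5.t1, whose nearest pooled summit was 306 bp away with a signal of 233, F41D9.t2, at 312 bp with 122, and B0344.t3, at 323 bp with 50.1. At 33 of the 184 X genes with a peak the 5′ end of a gene of the other classes searched was nearer to the summit. All 33 such neighbours were annotated as ncRNA. On autosomes such a 5′ end was nearer at 32 of 191. The search covered protein-coding genes and the RNA classes listed above, without piRNA genes or pseudogenes, so these counts do not compare X and autosomes for all genes.

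The internal promoter letters were found in nearly every gene, with a peak or without. The A box core was searched on the strand of the gene as T, A or G, G, C or T, any 2 bases, A, A or G, and the B box core as GTTCGANNC or GTTCAANNC. In tRNA genes an A box match counted only if it started in a short range near the 5′ end. Its position was thus confined by the search, while the B box core could lie anywhere in the gene. The A box core was found in 252 of 272 X genes (92.6%) and 306 of 333 autosomal genes (91.9%), and the B box core in 264 (97.1%) and 316 (94.9%). In windows of 72 bases on the 5′ ends of all other genes the shares were 1.02% and 0.825%. Genes with the A box core had a peak at 171 of 252 and genes without it at 13 of 20, and for the B box core the counts were 178 of 264 and 6 of 8.

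A run of TTTT within 25 bp after the gene was found at 269 X genes (98.9%) and 328 autosomal genes (98.5%), against 41.5% of all genes. In the 100 bp upstream, TATAAA, searched on the strand of the gene, was found at 13 X genes (4.78%), 22 autosomal tRNA genes (6.61%), 9.30% of small nuclear RNA genes and 10.9% of all genes. TGTCGG, searched on both strands, was found at 3 X genes (1.10%) and 16 autosomal tRNA genes (4.80%), against 42 of 129 small nuclear RNA genes (32.6%) and 1.98% of all genes. The 3 X genes with TGTCGG included 2 with a peak, of 198 and 252, both below the X median. A match is a description of letters and not of binding.

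Peaks were uneven along X. In windows of 1 Mb counted from the left end, every tRNA gene had a peak from 2 to 3 Mb (7 of 7) and from 15 to 16 Mb (15 of 15). The same held from 17 Mb to the right end (2 of 2), where both genes share 1 summit. From 13 to 14 Mb 26 of 30 had a peak. The lowest shares were those from 0 to 1 Mb (1 of 5), from 6 to 7 Mb (1 of 5), from 1 to 2 Mb (3 of 12) and from 9 to 10 Mb (6 of 20), and from 9 to 10 Mb 3 more had a strong region in both replicates only. The window from 8 to 9 Mb held the most tRNA genes, 48, and 34 had a peak. These windows were picked after their counts were seen.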

How the data were processed

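SNPC-4 ChIP-seq regions were analysed in 2 biological replicates of 1 group. Per the labels, the authors deposited narrowPeak lists for ce11 and ce10: 30000 candidate regions for replicate 1, for replicate 2 and for the pooled replicates, and 4675 pooled peaks past the IDR threshold. Only the ce11 lists were used. Each region carries 3 values deposited by the authors: a signal score, a −log10 q-value and the offset of its summit. The peak caller, the aligner, the control and the scale of the score are not stated in the labels or files. The q-value was not used. The lists give no counts, so the depth of each sample is unknown.

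Gene positions came from Ensembl release 115 and symbols, products and sequence from RefSeq, both for WBcel235. For each gene the nearest summit within 300 bp of the 5′ end was taken from the IDR list, or else from the pooled candidates. A strong replicate region is 1 of the 4675 of highest signal in that replicate. Chains link tRNA genes with 5′ ends within 1000 bp. Intervals are exact binomial at 95%. Summits simulated at known offsets, 1 to a gene, were all recovered. This checked the reading of offsets only, and not genes that share a summit or have several in the window. Python 3.11.15, numpy 2.4.6, pandas 2.3.3, scipy 1.17.1 and matplotlib 3.10.9 were used.

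The members, lists and rules were chosen with earlier results of these data known. The genes named were the 10 strongest, the 5 weakest with an IDR peak, the 5 strongest other candidates, the first 6 with no pooled region along X, the strongest of each isotype, the largest chains (4, since 2 tied in size, and the R11 chain as an addition), 3 genes on each side of the window edge and the 3 with the largest rank difference between replicates. Genes in identical families, in host genes or without a pooled region but strong in both replicates were added after their values were seen. The alternatives tried were other windows (150 and 500 bp), each replicate alone, the 50% of IDR peaks of highest signal, other distances and definitions of host, cluster and copy, and, chosen after seeing the data, 4 further settings.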

Additional observations from a re-analysis of the deposited data

How the results depend on the processing

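Of 62 values computed under the alternatives, 48 stayed close to the value reported and 14 moved. Close means within 1.5 times for a count of genes, within the 95% interval for a share, and within 1 SD between the replicates for a median. For the counts of X genes, 1.5 times is more than the 272 genes there are, so no rise could be marked as moved. Without replicate 1 the count of 202 was thus marked close, while the same result as a share, 74.3%, was marked as moved. With 1 replicate left out, the share of X tRNA genes with a strong region was 72.8 to 74.3%, against 67.6% with an IDR peak, that of clustered genes was 71.3 to 74.4% and that of lone genes was 71.3 to 76.9%. The median signal was then 138 to 142, on the scale of the replicate lists. With the 50% of IDR peaks of highest signal, the share was 60.7% on X and 42.9% on autosomes, and the X median signal was 285.5. Taking the highest summit in the window gave a median of 269.6. Without replicate 1 lone genes thus stood above clustered genes, as they did with a window of 150 bp (62.8% of clustered and 63.6% of lone genes). A window of 500 bp gave 81.4% for clustered genes. Requiring 20 identical bases on each side gave 67.9% for single-copy and 50% for multi-copy genes, the second over 4 genes, which turns their order round. The order of X above autosomal genes and of intergenic above intronic genes held under every alternative run. Chosen after seeing the data, leaving out shared summits gave medians of 208.2 with 1 neighbour and 147.7 with 2 or more, and leaving out chains of 4 or more gave 198.1 with 2 or more. The cause of these shifts was not tested.

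No paired analysis was possible because there is 1 group. The lists give no read counts, no untagged control was analysed here, and candidate lists of fixed length make their lower end a rank. An absent region is therefore no evidence that a gene was unbound.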
